A study of Mus musculus with 7 samples.

Results

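The receptors of the common gamma chain family are described here in type 2 innate lymphoid cells (ILC2s) sorted from mouse hearts. The members were the table rows whose symbol was Il2rg, Il2ra, Il2rb, Il15ra, Il7r, Il4ra, Il13ra1, Il9r or Il21r, which gave 9 of the 55335 gene identifiers in each table, 1 row per symbol. The rule used gene names only and no measured value. RNA was sequenced from 7 libraries. In 3 of them the cells came from naive hearts, and in 4 from Balb/C hearts grafted into C57BL/6 (B6) mice, which reject them acutely, and harvested 7 days later. Cells were sorted as CD45-positive, lineage-negative and ST2-positive, and each library pooled the cells of 4 to 7 hearts, so that pools and not animals were the replicates. The labels gave no sex, age or genotype, no strain for the naive hearts and no sequencing batch, and they carried the 7-day time on the naive samples too. No syngeneic graft was among the samples, so that surgery and allogenicity cannot be told apart in the contrast. Whether an ILC2 in a graft came from the donor heart or the recipient cannot be told apart in these tables either.

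The common gamma chain, encoded by Il2rg, is the shared signalling subunit of the receptors for interleukins (IL) 2, 4, 7, 9, 15 and 21, and each cytokine adds a chain of its own that sets specificity. JAK3 binds the gamma chain and JAK1 binds the partner chain, and the pair phosphorylates STAT5, STAT6 or STAT3 according to the receptor. In ILC2s, IL-7 is known as a factor for development and maintenance, IL-2 and IL-9 as factors for survival and expansion, and IL-4 as a costimulus. Il13ra1 is not a gamma chain partner: it pairs with Il4ra in the type II receptor, which binds IL-4 and IL-13 and is used mainly outside the lymphoid lineage.

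All 9 members are annotated as protein coding in GENCODE M21 on GRCm38, the assembly also called mm10. Il2ra, at chr2:11642807-11693193, and Il15ra, at chr2:11705290-11734317, lie side by side on the plus strand, 12.1 kb apart with no annotated gene between them. Il4ra, at chr7:125552120-125579474, and Il21r, at chr7:125603429-125633570, are likewise neighbours on the plus strand, 24.0 kb apart. The others lie apart: Il2rg at chrX:101264378-101268255 and Il9r at chr11:32187541-32200279 on the minus strand, Il2rb at chr15:78479256-78495271 and Il7r at chr15:9505788-9530176 on the minus strand, and Il13ra1 at chrX:36112110-36171259 on the plus strand.

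Because STAT5 is the factor that most of these receptors activate, the start regions of the members were searched for its core motif, TTCNNNGAA, which reads the same on both strands. RefSeq promoters on GRCm38.p6, 250 bases before to 50 after the start, were at hand for 8 of the 9 members and not for Il2rb. Of these, Il7r alone held the letters, 142 bases before its RefSeq start at chr15:9529876, against 8.30% of all 32851 promoters of that length. The stretch around it, chr15:9530000-9530028 on the minus strand, is shown with the motif in capitals. It lies before the start of 3 of the 4 Il7r transcripts in GENCODE M21 and in an intron of the other, Il7r-203, whose earlier start sets the gene's bounds given above.
Il7r: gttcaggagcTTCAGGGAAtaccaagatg
A match of letters is a description and not a binding site, and no binding was measured in these samples.

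Naive replicate 2 stood apart from the other libraries. Ptprc, which encodes the CD45 used in the sort, was at 11.7 CPM there (counts scaled to the library total), against 239 to 739 in the others, and Il1rl1, which encodes ST2, was at 6.79 CPM against 343 to 756. Gata3, the transcription factor that defines ILC2s, was at 34.8 against 654 to 970 CPM. The summed 12 ILC2 markers were at 1163 CPM there and at 11880 to 15136 CPM elsewhere, so that the labelled cell type had its defining markers in the other 6 libraries. In the same library 10 kidney genes summed to 10528 CPM, against 70.3 to 305 in the others, and mitochondrial genes took 26.5% of counts against 2.04% to 3.11%. Total counts ran from 29107326 to 53044907 per library, and 3 counts, the limit that a count of 0 allows, came to 0.0566 to 0.103 CPM. The comparisons of the members are therefore given with and without naive replicate 2.

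Measured as FPKM, which scales fragments to gene length and library size, Il2rg was by far the most abundant chain. Over the 4 allografts the order of the mean FPKM (± SD, n = 4) was Il2rg 620 ± 120, Il7r 119 ± 24.7, Il2ra 49.6 ± 2.71, Il2rb 42.9 ± 4.49, Il4ra 19.1 ± 0.895, Il9r 10.003 ± 2.01, Il15ra 3.58 ± 1.89, Il21r 2.25 ± 0.467 and Il13ra1 0.749 ± 0.321. Neighbours in this order were separated in every allograft library, except Il2ra and Il2rb, which crossed in allograft 4, and Il15ra and Il21r, which held the order in 2 of 4 libraries. The mean FPKM over naive replicates 1 and 3 gave the same order, from 607 for Il2rg to 0 for Il13ra1. There, however, the 2 libraries overlapped for Il7r and Il2ra, for Il2rb and Il4ra, for Il4ra and Il9r, for Il15ra and Il21r, and for Il21r and Il13ra1.

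**Figure D1:**
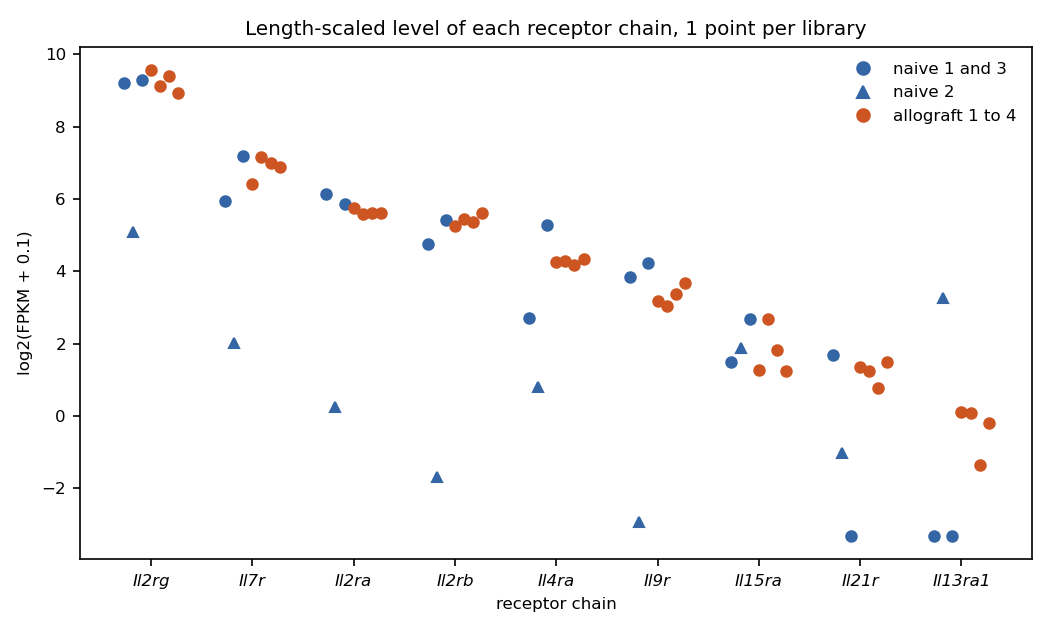
FPKM of each receptor chain on a log axis, 1 point per library, with naive and allograft libraries in different colours. Il2rg lies at 490 to 755 FPKM in every library but naive replicate 2, where it is at 33.7, and Il13ra1 is highest in that library at 9.43.

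The gamma chain itself made up 62.4% to 78.2% of the summed FPKM of the 9 members, depending on the library. In every library it was the highest of the 9. Among all genes, its FPKM ranked between 78 and 132 in the 6 libraries other than naive replicate 2, where it ranked 1235. The scarcest chain differed between receptors. For the high-affinity IL-2 receptor it was Il2rb in 6 libraries and Il2ra in allograft 4, by 48.4 against 48.8 FPKM. For the IL-15 receptor it was Il15ra everywhere but in naive replicate 2, where Il2rb was at 0.208 FPKM. For the type II IL-4 receptor it was Il13ra1 everywhere but in naive replicate 2.

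Il2rg was at 1612, 87.6 and 1678 CPM in naive replicates 1 to 3 and at 2094, 1527, 1864 and 1348 CPM in the allografts. Naive replicates 1 and 3 fell inside the allograft range, and naive replicate 2 fell far below it. Allograft over naive gave a log2 ratio of 0.56 (SE 0.78, adjusted p = 0.896 by edgeR's quasi-likelihood test), and without naive replicate 2 it was 0.01 (SE 0.24, adjusted p = 0.992). In bulk libraries such as these, fewer cells that carry a transcript and less of it per cell cannot be told apart. An unnamed gene model on the same strand, Gm20489, shares exon bases with Il2rg and held at most 27 counts in any library.

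The IL-2 receptor alpha chain, Il2ra (CD25), raises affinity for IL-2 and does not signal. It was at 458, 6.79 and 377 CPM in the naive libraries and at 357, 317, 318 and 319 CPM in the allografts. All 4 allografts lay below naive replicates 1 and 3 and above naive replicate 2, and the spread among allografts was narrow, with 328 ± 19.4 CPM (SD, n = 4). Its log2 fold change was 0.20 (SE 0.95, adjusted p = 0.980) with all libraries and -0.39 (SE 0.18, adjusted p = 0.285) without naive replicate 2, so the sign turned and neither fit passed the threshold of 0.05. DESeq2 without that library gave -0.46 with an adjusted p of 0.0744.

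Il2rb (CD122) is the signalling beta chain shared by the IL-2 and IL-15 receptors. Its values were 132, 0.989 and 208 CPM in the naive libraries and 191, 216, 203 and 241 CPM in the allografts. The allografts lay above naive replicate 1 but straddled naive replicate 3. Its log2 fold change was 0.87 (SE 1.13, adjusted p = 0.883), and 0.27 (SE 0.26, adjusted p = 0.632) without naive replicate 2. Il2rb is also a transcript of NK and T cells. The NK cell list summed to 18.6 to 190 CPM in naive libraries and 261 to 359 CPM in allografts. Of its 8 genes, 5 were higher in every allograft than in every naive library, where 12.5% of all tested genes were. Gzma made up most of the NK cell sum. It was at 174, 11.3 and 57.9 CPM in the naive libraries and at 185 to 265 CPM in the allografts. Ncr1 overlapped between the groups, at 0, 2.37 and 28.8 CPM against 11.4 to 26.8 CPM. The T cell list summed to 34.4 to 1144 CPM in naive libraries and 1147 to 1342 CPM in allografts, with 5 of its 13 genes higher in every allograft, beside the same 12.5%. Trbc1, Trbc2 and Cd3g made up most of that sum, whereas Cd3e was at no more than 1.24 CPM and Foxp3 at no more than 0.309 CPM in any library. Cd8a, Cd8b1, Cd5 and Foxp3 were at 0 in all naive libraries, but each was also at 0 in allograft 2 or 3. Cd4 was at 0, 0 and 11.6 CPM in the naive libraries and at no more than 0.721 CPM in the allografts. The part of these cells in the receptor levels was not tested.

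Il15ra presents IL-15 to the beta and gamma chains. It was at 13.8, 17.5 and 31.7 CPM in the naive libraries and at 12.1, 32.5, 17.7 and 11.8 CPM in the allografts, so the groups overlapped. It varied 2.76-fold among the allografts, more than any other member but Il13ra1. Its log2 fold change was -0.40 (SE 0.56, adjusted p = 0.899), and -0.36 (SE 0.61, adjusted p = 0.810) without naive replicate 2.

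Il7r (CD127) binds IL-7 together with the gamma chain, and binds thymic stromal lymphopoietin (TSLP) together with Crlf2. It was at 326, 20.1 and 775 CPM in the naive libraries and at 460, 771, 687 and 642 CPM in the allografts. Naive replicates 1 and 3 bracketed all 4 allografts, and they differed from each other by 2.38-fold. The fitted log2 fold change was 0.72 (SE 0.87, adjusted p = 0.871), and 0.15 (SE 0.39, adjusted p = 0.885) without naive replicate 2. Leaving out naive replicate 3 gave 1.86 (adjusted p = 0.351). Crlf2, the TSLP partner chain, was the scarcer of the pair in all 7 libraries, at 7.90, 1.14 and 33.3 FPKM in the naive libraries and 10.5, 12.6, 18.97 and 6.94 FPKM in the allografts.

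Il4ra, the chain that binds IL-4, differed more between naive replicates 1 and 3 than any other member with counts in both. It was at 43.96, 10.6 and 263 CPM in the naive libraries and at 132, 135, 124 and 140 CPM in the allografts. The 4 allografts agreed within 1.12-fold, while naive replicates 1 and 3 lay on either side of them and differed 5.98-fold. For comparison, over 8437 genes with a mean of at least 10 CPM in those 2 libraries, the median difference between them was 2.19-fold, and 23.0% of genes differed by more than 5-fold. For Il4ra the log2 fold change was 0.25 (SE 0.84, adjusted p = 0.967), and -0.28 (SE 0.62, adjusted p = 0.867) without naive replicate 2. Leaving out naive replicate 3 in its place gave 2.17 (adjusted p = 0.143), so the estimate turned on which naive library was compared. An antisense gene model, Gm44876, overlaps exons of Il4ra and held at most 4 counts.

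Il13ra1 had the lowest FPKM of the family in every library but naive replicate 2, tied with Il21r at 0 in naive replicate 3. Naive replicates 1 and 3 held 0 counts each, naive replicate 2 held 1737 counts (38.2 CPM), and the allografts held 186, 134, 51 and 96 counts (4.22, 4.13, 1.25 and 3.30 CPM). The highest library was thus the one in which kidney genes were high, and the other naive libraries had none. Across all libraries the log2 fold change was -2.56 (SE 2.37, adjusted p = 0.814). The direction turned without naive replicate 2, where every allograft was above both naive libraries. Il13ra1 was then at least 51.5-fold higher on average in the allografts, against the floor of 3 counts per library. It passed the threshold (adjusted p = 0.0443 by edgeR, 1.02e-06 by DESeq2). With 0 counts in both naive libraries, however, it passed the filter on low counts only through the allografts, so the call only describes those counts. That pattern was common at this level: of 5645 tested genes with a mean of 1 to 10 CPM in the allografts, 22.8% held at most 3 counts in both naive replicates 1 and 3. Fibroblast genes, another known setting of Il13ra1, summed to 0.0566, 141 and 114 CPM in the naive libraries and 15.6 to 71.6 CPM in the allografts, and the myeloid list to 2.49, 328 and 480 CPM and 190 to 308 CPM. In naive replicate 3 both sums were above their range in the allografts while Il13ra1 was at 0. As with Il13ra1, some genes of these lists were at 0 in naive replicates 1 and 3 and present in each allograft. Chosen after their values were seen, they were S100a8 at 23.2 to 45.8 CPM, S100a9 at 9.26 to 16.2 CPM, C1qa at 1.23 to 4.06 CPM and Col3a1 at 2.45 to 15.8 CPM. In naive replicate 2, where Il13ra1 was above every allograft, S100a8 (6.79 CPM) and S100a9 (2.66 CPM) were below every allograft. C1qa (13.1 CPM) was above the allografts there and Col3a1 (8.40 CPM) within their range. Other genes of the lists were present in naive replicate 3, among them Lyz2 at 432, Dcn at 82.5, Col1a2 at 26.4 and C1qb at 22.9 CPM. The part of myeloid cells and fibroblasts in Il13ra1 was not tested.

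Il9r, the IL-9 binding chain, was lower in the allografts than in 2 of the naive libraries. It was at 80.2, 0.176 and 104 CPM in the naive libraries and at 51.2, 46.5, 58.7 and 72.7 CPM in the allografts. All 4 allografts lay below naive replicates 1 and 3 and above naive replicate 2. Its log2 fold change was -0.13 (SE 1.25, adjusted p = 0.992), and -0.74 (SE 0.28, adjusted p = 0.232, unadjusted p = 0.0373 in edgeR's fit) without naive replicate 2, which did not pass the threshold. The mast cell and basophil list, cells that also carry Il9r, summed to 414, 15.2 and 303 CPM in the naive libraries and 208 to 240 CPM in the allografts. Of its 8 genes, 2 went the other way and were higher in every allograft than in every naive library, where 12.5% of all tested genes were. These were Fcer1a, at 5.60, 0 and 0 CPM against 9.42 to 20.3 CPM, and Prss34, at 0 in all naive libraries against 7.00 to 13.9 CPM. That sum, like Il9r, was lower in every allograft than in naive replicates 1 and 3, and its part in the values was not tested.

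Il21r, which binds IL-21 and is best known on B, T and NK cells, was scarce. It was at 11.8, 1.41 and 0 CPM in the naive libraries and at 9.56, 8.64, 6.19 and 10.4 CPM in the allografts. The value of 0 in naive replicate 3 stood beside 628 counts in naive replicate 1, and the allografts lay between the 2. The fitted log2 fold change was 0.92 (SE 1.65, adjusted p = 0.930), and 0.54 (SE 1.83, adjusted p = 0.918) without naive replicate 2. Leaving out naive replicate 1 gave 3.08 (adjusted p = 0.428) and leaving out naive replicate 3 gave 0.33 (adjusted p = 0.863). The B cell list summed to 26.1 to 265 CPM in the naive libraries and 319 to 486 CPM in the allografts, with 5 of its 8 genes higher in every allograft, against 12.5% of all genes, and its part in Il21r was not tested. Of that list, Ms4a1 and Pax5 were at 0 in all naive libraries, and Ms4a1 was at 13.6 to 34.1 CPM in the allografts. Pax5 was also at 0 in allograft 3. Cd79b and Ighm overlapped between the groups. Cd79b was at 117, 1.41 and 0 CPM in the naive libraries and at 34.6 to 47.7 CPM in the allografts. Ighm, the largest part of the sum in every library, was at 148, 19.7 and 249 CPM against 226 to 377 CPM.

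**Figure D2:**
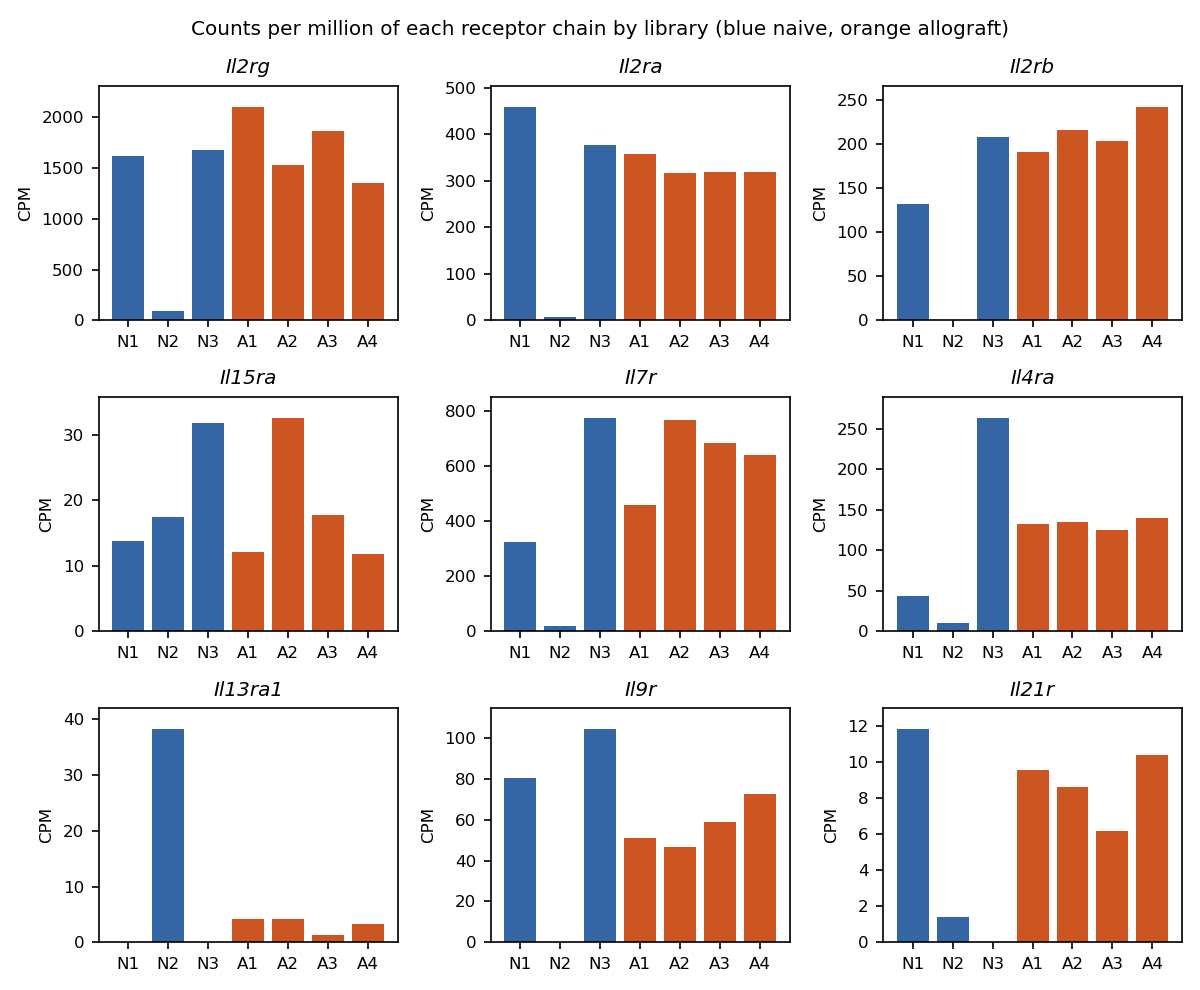
CPM of the receptor chains by library, 1 panel per gene with its own axis from 0, naive replicates 1 to 3 at the left and allografts 1 to 4 at the right. Il2ra and Il9r are lower in the 4 allografts than in naive replicates 1 and 3, and for Il4ra and Il7r naive replicate 3 is the highest library.

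Across the family, 0 of 9 members passed an adjusted p of 0.05 between allograft and naive hearts in edgeR's quasi-likelihood test over all 7 libraries, against 0.0353% of the 17015 genes tested. None reached an unadjusted p of 0.05 either, where 1748 of all genes did. DESeq2 called 0 members too and gave no adjusted p for Il13ra1, beside 5.95% of all genes. The median log2 fold change was 0.25 over the members and -0.01 over all genes. It was positive for 6 of 9 members, beside 49.4% of all genes. With DESeq2's size factors the median over all genes moved to -0.20 and that over the members to 0.12. Again 6 of 9 members were positive, beside 42.2% of all genes.

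Without naive replicate 2, 1 of 9 members passed in edgeR, Il13ra1, against 3.10% of 18037 genes, and the same 1 passed in DESeq2, against 15.9%. Il13ra1 had 0 counts in both naive libraries of that fit and passed the filter on low counts only through the allografts. Il13ra1 and Il9r reached an unadjusted p of 0.05 in edgeR's fit (2 of 9), beside 3651 of all 18037 genes. The median over the members was then 0.01 and that over all genes 0.23, and the median of the members was the same with Il13ra1 at its lower bound. By ranges, 0 members were separated between the groups over all 7 libraries, where 12.5% of genes lay higher in every allograft and 2.15% lower. With naive replicate 2 left out, Il13ra1 lay higher in every allograft (1 of 9, against 21.0% of genes), and Il2ra and Il9r lay lower (2 of 9, against 7.15%).

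**Figure D3:**
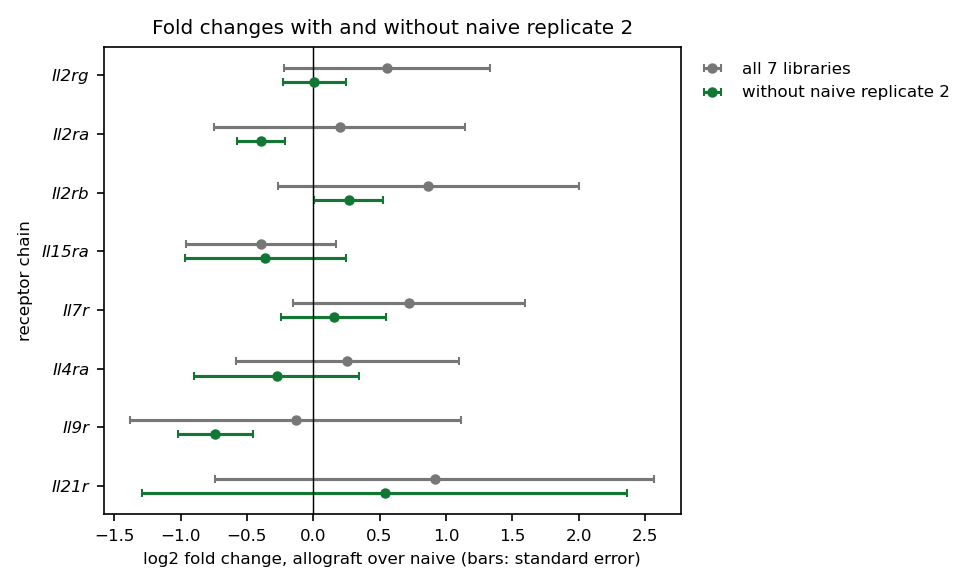
Log2 fold change of allograft over naive with its standard error for 8 receptor chains, over all 7 libraries and without naive replicate 2. Bars shorten without that library for most chains, as for Il2rg from 0.78 to 0.24; Il13ra1 is left out because its fitted value without that library depends on counts of 0.

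Among libraries of 1 group, the members fell into those that varied little and those that varied much. Between naive replicates 1 and 3, Il2rg differed 1.04-fold, Il2ra 1.22-fold, Il9r 1.299-fold and Il2rb 1.57-fold, below the median of 2.19-fold for the 8437 genes with a mean of at least 10 CPM over the 2 libraries. Il15ra at 2.30-fold and Il7r at 2.38-fold were near it, and Il4ra at 5.98-fold was above it. Il21r differed by at least 172-fold, from 11.8 CPM to a count of 0 set at the floor of 3 counts, and Il13ra1 had 0 counts in both. Among the allografts the highest and lowest library differed 1.12-fold for Il2ra and Il4ra, 1.27-fold for Il2rb, 1.55-fold for Il2rg, 1.56-fold for Il9r and 1.68-fold for Il7r and Il21r, beside a median of 1.56-fold for the same 8437 genes. Il15ra at 2.76-fold and Il13ra1 at 3.38-fold varied most.

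Ratios within a library do not depend on the scaling between libraries. Over Il2rg, on FPKM with 0.1 added, 0 of 8 members differed between allograft and naive hearts after adjustment, in an exact two-sided permutation test over the 35 ways to label 3 of 7 libraries. That test cannot go below 0.0286, and 5 of the 8 ratios would have to reach it for any to pass 0.05 after adjustment, so a change of a few members could not have been called. The log2 differences ran from -1.66 for Il15ra to 1.20 for Il2rb. With naive replicate 2 left out the smallest p is 0.0667, so no ratio can pass; Il13ra1 over Il2rg reached it, at 2.97. Over Ptprc, on CPM with 0.1 added, 0 of 9 differed after adjustment, where 6 would have had to reach the smallest p. Over all 7 libraries Il15ra alone reached it, with an exact p of 0.0286 (adjusted p = 0.257 over the 9 ratios). Per Ptprc transcript, Il15ra was at 0.0577, 1.49 and 0.0562 in the naive libraries and 0.0309, 0.0440, 0.0351 and 0.0267 in the allografts. Every allograft lay below every naive library, and the log2 difference was -2.33. It was -0.76 without naive replicate 2, again at the smallest p of that exact test (p = 0.0667), and with the summed ILC2 markers in place of Ptprc it was -1.23 (exact permutation p = 0.314). Other members reached the smallest p under those settings: Il13ra1 over Ptprc at 4.46 without naive replicate 2 (exact p = 0.0667), and Il2rb at 1.75 over the summed ILC2 markers in all 7 libraries (exact p = 0.0286, adjusted p = 0.257).

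The same ratio set the members apart in naive replicate 2. Per Ptprc transcript, Il2rg was at 7.48 and Il7r at 1.71 there, just above the 2.07 to 6.74 and 1.04 to 1.45 of the other libraries. Il15ra at 1.49 and Il13ra1 at 3.26 were above the others, which ran from 0.0267 to 0.0577 and from 0 to 0.0107. Il4ra at 0.908 and Il21r at 0.120 were also above the others, which ran from 0.183 to 0.465 and from 0 to 0.0495, and Il2ra at 0.580 lay within their 0.429 to 1.92. Il2rb at 0.0844 and Il9r at 0.0150 were below the others, which ran from 0.293 to 0.554 and from 0.0629 to 0.335. In naive replicate 2, then, Il2rg, Il7r and Il2ra were low about as Ptprc was, Il4ra and Il21r less so, and Il2rb and Il9r more so, whereas the CPM of Il15ra was within the range of the other libraries and that of Il13ra1 above it.

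**Figure D4:**
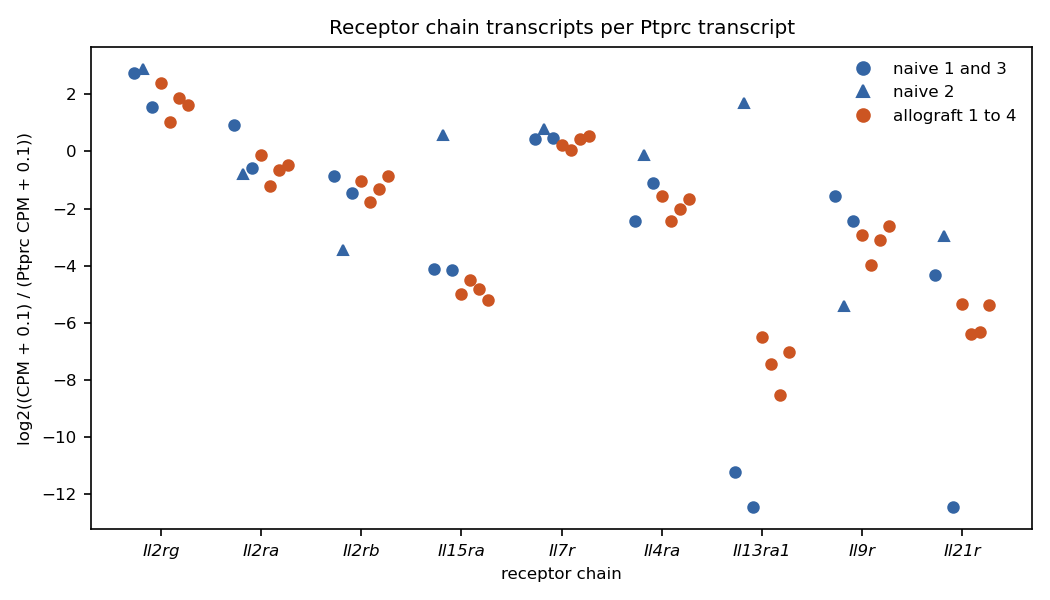
Log2 of the CPM of each receptor chain over the CPM of Ptprc, with 0.1 added to both, 1 point per library. The ratios in brackets are without the added 0.1. In naive replicate 2, Il13ra1 (3.26) and Il15ra (1.49) lie above all other libraries, and Il2rb (0.0844) and Il9r (0.0150) lie below them.

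The rest of the pathway was read from 41 genes in 6 lists: ligands, partner chains, JAKs and STATs, inhibitors, adaptors, and known targets of STAT5. Of these, 36 were tested, and Il9, Il21, Tslp, Il13ra2 and Irs1 did not pass the filter on low counts. In edgeR's fit 0 of 36 passed the threshold over all libraries, against 0.0353% of all genes. An unadjusted p of 0.05 was reached by 5 of 36, 4 of them higher and 1 lower, beside 1748 of all 17015 genes. DESeq2 called 4 of 36 (11.1%, against 5.95% of all genes): Stat5a, Pim2 and Lta higher and Socs3 lower. Without naive replicate 2, edgeR again called 0, against 3.10% of all genes. In that fit 8 of 36 reached an unadjusted p of 0.05, beside 3651 of all 18037 genes. DESeq2 without that library called 6 of 36 (16.7%, against 15.9%), the same 4 with Ptpn6 higher and Socs1 lower. By ranges, 11 of 36 (30.6%, against 12.5%) lay higher in every allograft over all 7 libraries and 1 (2.78%, against 2.15%) lower. In the 6 libraries without naive replicate 2 these were 12 (33.3%, against 21.0%) and 3 (8.33%, against 7.15%).

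Stat5a encodes a form of STAT5, the transcription factor downstream of IL-2, IL-7, IL-9 and IL-15. It was at 22.0, 7.72 and 18.6 CPM in the naive libraries and at 36.5, 76.4, 67.3 and 63.8 CPM in the allografts. Each allograft was above each naive library. Its log2 fold change was 1.79 (SE 0.42, adjusted p = 0.161), and 1.54 (SE 0.38, adjusted p = 0.0894) without naive replicate 2. Stat5b, the other STAT5 gene, chosen after its values were seen, overlapped between the groups. It was at 76.0, 7.25 and 33.1 CPM in the naive libraries and at 63.4, 60.0, 75.1 and 67.8 CPM in the allografts. The log2 fold change of Stat5b was 0.25 (SE 0.36, adjusted p = 0.773 by edgeR) without naive replicate 2. All 9 JAK and STAT genes had a positive log2 fold change over 7 libraries, beside 49.4% of all genes. It was positive for 6 of 9 without naive replicate 2, beside 58.7% of all genes. Jak1 and Jak3, the kinases bound to these receptors, had fold changes of -0.01 (SE 0.18) and -0.08 (SE 0.20) without that library.

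Among STAT5 targets, the kinase gene Pim2 was at 22.2, 7.54 and 19.6 CPM in the naive libraries and at 54.1, 44.003, 49.7 and 39.2 CPM in the allografts. The groups did not overlap, and the log2 fold change was 1.38 (SE 0.39, adjusted p = 0.258), or 1.11 (SE 0.31, adjusted p = 0.113) without naive replicate 2. Lta, which encodes lymphotoxin alpha and was picked for mention after its values were seen, was at 0, 0.550 and 0.551 CPM against 18.1, 12.2, 9.08 and 8.38 CPM. Of the 8 targets, 6 had a positive log2 fold change over all libraries and 4 without naive replicate 2, so the list did not move as 1. The shares of all genes were 49.4% and 58.7%.

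Among the inhibitors, Socs3, a feedback inhibitor of cytokine receptors, was at 34.3, 40.4 and 52.9 CPM in the naive libraries and at 25.2, 26.1, 20.1 and 18.3 CPM in the allografts. It was lower in each allograft than in each naive library, naive replicate 2 included. The fitted log2 fold change was -1.15 (SE 0.36, adjusted p = 0.332), and -1.01 (SE 0.35, adjusted p = 0.199) without naive replicate 2. Socs1, which inhibits JAKs and was chosen after its values were seen, was at 81.4, 9.47 and 302 CPM against 53.6, 46.3, 43.6 and 40.7 CPM, with -2.12 (SE 0.49, adjusted p = 0.0753) without naive replicate 2. Ptpn6, the phosphatase SHP-1, also chosen after its values were seen, was at 20.7, 21.0 and 5.16 CPM against 63.4, 52.6, 67.5 and 45.0 CPM. Without naive replicate 2, 1 of the 7 inhibitors had a positive log2 fold change, beside 58.7% of all genes.

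Of the ligands, Il2 had the smallest p over all libraries. It was at 16.3, 4.09 and 236 CPM in the naive libraries and at 29.6, 17.7, 28.3 and 25.5 CPM in the allografts, and its log2 fold change was -1.83 (SE 1.09, adjusted p = 0.679), or -2.39 (adjusted p = 0.210) without naive replicate 2. Naive replicate 3 set that sign, since leaving it out gave 1.19. Il4 and Il13, type 2 cytokines of ILC2s that were chosen after their values were seen, lay higher in each allograft than in each naive library. Il4 was at 32.3, 0.901 and 43.98 CPM against 71.8, 60.5, 74.0 and 52.4 CPM, and Il13 was at 12.7, 0 and 8.47 CPM against 16.8, 19.8, 21.0 and 22.9 CPM. Neither passed the threshold (adjusted p = 0.743 and 0.834, and 0.250 and 0.302 without naive replicate 2). Of the adaptors, Grb2 had the smallest p, with 113, 18.6 and 116 CPM against 132, 121, 126 and 127 CPM and a log2 ratio of 0.54 (SE 0.49, adjusted p = 0.813), or 0.09 (adjusted p = 0.849) without naive replicate 2. The single partner chain tested, Crlf2, had -0.24 (SE 0.92, adjusted p = 0.973), or -0.79 (adjusted p = 0.563) without naive replicate 2.

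**Figure D5:**
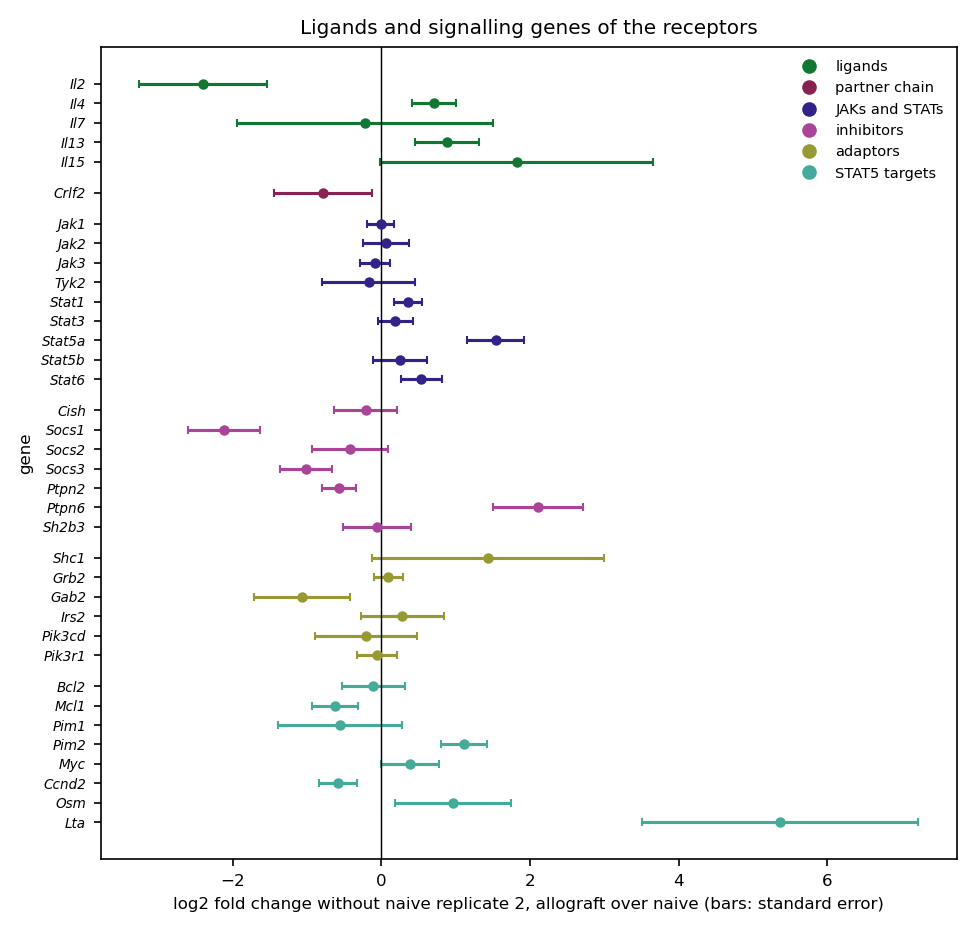
Log2 fold change of allograft over naive without naive replicate 2, with its standard error, for the 36 pathway genes tested, coloured by list. Stat5a (1.54) and Pim2 (1.11) lie to the right of 0 and Socs1 (-2.12) and Socs3 (-1.01) to the left; the value of Lta rests on naive counts near 0.

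Genes with the most similar profile were sought for the 4 chains with a rule on log2 CPM centred over the 7 libraries, by root-mean-square difference. For Il2rg these were Srgn (0.12), 2410006H16Rik (0.18) and St8sia4 (0.23), and for Il7r they were Nrip1 (0.13), Akna (0.15) and Rel (0.15). For Il2ra they were Tbc1d10c (0.17), Padi2 (0.17) and Cysltr1 (0.20), and for Il4ra they were Gem (0.14), Gimap3 (0.18) and 3110043O21Rik (0.21). The profiles share the low values of naive replicate 2, and without it only Nrip1 for Il7r and Gimap3 for Il4ra were still among the 3 nearest.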

How the data were processed

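Per the labels, RNA of sorted heart ILC2s was turned into amplified full-length cDNA and sequenced as 7 libraries. Counts per gene and FPKM were deposited by the authors in 2 tables with the same identifiers. The submitters' processing notes name FastQC 0.11.5, STAR 2.5.3a, StringTie 1.3.1c, DESeq2 1.16.1 and the build mm10, with no role or order. Which annotation was counted, and whether by strand, was not given in the sources used here. Over 7340 genes both tables carried the same measurement (SD of the log2 ratio at most 0.00352 per library), so FPKM served for levels between genes and CPM of the total count for libraries.

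The 9 members, the lists and the tests were chosen with earlier results of these data known. Counts were tested with edgeR 4.0.16 (R 4.3.3), quasi-likelihood, TMM, filterByExpr and Benjamini-Hochberg adjustment over all genes at 0.05. Alternatives used DESeq2 1.42.0, limma 3.58.1 (voom with quality weights, and log2 of FPKM plus 1 or 0.1), other size factors and filters, and the fit without each library. The script was tested on simulated data in which no library was like naive replicate 2, so that test does not cover such a library. Standard errors follow from the F value. No 2 libraries of a group agreed within sampling noise. Intervals from count floors cover counting error only, since the reads carried no molecular identifiers.

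The genes named were the members; in each pathway list any gene past the threshold with or without naive replicate 2, otherwise the one with the smallest p; Ptprc, Il1rl1 and Gata3; and for Il2rg, Il7r, Il2ra and Il4ra the 3 genes of nearest profile (prior count 2) among those averaging 5 or more in log2 CPM. Exceptions are marked as chosen after their values were seen, and Jak1, Jak3 and single marker genes were also added then. Single ratios were tested by exact permutation.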

Additional observations from a re-analysis of the deposited data

Results flagged for a closer look

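Of 46 values tested for a library far from the others of its group of 4 allografts, 2 were far by Dixon's 95% limit, where chance gives about 1 in 20. Il2ra was at 357.1 CPM in allograft 1, against 317.5 to 319.3 CPM in the other 3 allografts, and the gap was small in relative terms. The summed B cell list was at 319.2 CPM in allograft 4, against 476.4 to 485.6 CPM in the others. Il21r was at 10.4 CPM in that library, the highest of the 4 allografts, which differed 1.68-fold. The part of B cells in Il21r was not tested.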

How the results depend on the processing

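Most estimates moved when naive replicate 2 was left out, and the cause was not tested. Genes past the threshold numbered 6 of all genes (5 higher, 1 lower; 4 higher and 0 lower with DESeq2's size factors in edgeR), 1012 with DESeq2, 1 with voom, 76, 201 and 28 with limma on log2 FPKM plus 1, plus 0.1 and plus 1 unfiltered, and 2859 with DESeq2 without naive replicate 2, which was added after seeing the data. Leaving out 1 library gave 0 to 560 (560 when naive replicate 2 was dropped, 107 for replicate 1, 7 for replicate 3, and 0 for each allograft, with 848 to 1074 at unadjusted p under 0.05). Members past the threshold were 0 to 1 when leaving out 1 library and 1 with DESeq2 without naive replicate 2, and 3 members did not overlap without it. Pathway genes past it were 4 with DESeq2, 1 with limma on FPKM plus 1 or plus 0.1, and 6 with DESeq2 without naive replicate 2.

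Log2 fold changes turned sign as follows. DESeq2 without naive replicate 2 gave Il2rg -0.066, Il2ra -0.46, Il4ra -0.39, Gata3 -0.20 and a fitted Il13ra1 of 9.60. Voom gave Il13ra1 5.37, Il9r 1.19, Il2 0.052 and Crlf2 0.50. Limma on FPKM plus 1, filtered or not, gave Il9r 0.69 and Crlf2 0.53, and plus 0.1 gave Il13ra1 0.79, Il9r 1.61 and Crlf2 0.74. Leaving out 1 library gave ranges of -0.39 to 0.70 for Il2ra, -0.28 to 2.17 for Il4ra, -3.11 to 10.02 for Il13ra1, -0.74 to 0.52 for Il9r, -2.39 to 1.19 for Il2, -0.79 to 1.39 for Crlf2 and -0.12 to 1.15 for Gata3. Without a change of sign they were 0.0080 to 0.98 for Il2rg, 0.27 to 1.68 for Il2rb, -0.81 to -0.089 for Il15ra, 0.15 to 1.86 for Il7r and 0.33 to 3.08 for Il21r.

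Ratios over Il2rg turned sign with a pseudocount of 1 for Il2ra (-0.093), Il9r (-0.70) and Il21r (-0.53), and with CPM for Il13ra1 (0.62). Leaving out 1 library gave -0.38 to 0.51 for Il2ra, -0.84 to 0.41 for Il4ra, -2.42 to 2.97 for Il13ra1, -0.72 to 0.76 for Il9r and -1.22 to 2.02 for Il21r. Over Ptprc, Il21r was -0.47 with a pseudocount of 1. With the summed ILC2 markers in place of Ptprc the values were Il2rg 0.43, Il2ra 0.61, Il7r 0.85, Il4ra 0.39, Il13ra1 1.04 and Il9r 1.08. Leaving out 1 library gave -0.80 to 0.060 for Il2ra, -0.10 to 1.19 for Il2rb, -2.62 to 4.46 for Il13ra1, -1.15 to 0.77 for Il9r and -2.22 to 2.53 for Il21r.

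Same-numbered libraries did not deviate together (r from -0.018 to 0.037). With 3 such pairs, this could not settle whether the numbers paired the samples. With the replicate block 0 members, 0 pathway genes and 0 of all genes passed, with 252 of all genes at unadjusted p under 0.05, and the block gave Il13ra1 6.35, Il9r 0.78 and Crlf2 0.79.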

Other observations

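Without naive replicate 2, the gene nearest to Il4ra in profile was Tyk2 (root-mean-square difference 0.056 in log2 CPM over 6 libraries), a JAK kinase that also serves the type II IL-4 receptor. Tyk2 was at 16.7, 7.30 and 92.7 CPM in the naive libraries and at 48.4, 52.3, 48.1 and 55.0 CPM in the allografts. The likeness was found by ranking all genes, and it was not tested.

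Many genes at low levels shared the absence of Il21r from naive replicate 3. Of 5645 tested genes with a mean of 1 to 10 CPM in the allografts, 2644 (46.8%) held at most 3 counts in naive replicate 3. That library had 13864 genes with a count, beside 15820 in naive replicate 1 and 19235 to 21354 in the allografts.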
